A study of Drosophila melanogaster with 3 samples.

Results

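The sarcomere genes of head muscle were taken from the deposited count table of adult wild-type Drosophila melanogaster heads. 10 genes of the thick filament, the thin filament and the titin-like connecting proteins were listed by symbol, and each was looked up by its FlyBase gene ID. 9 of the 10 were matched among the 17558 genes of the table: Mhc, Mlc1, Mlc2, Prm, up, Tm1, Tm2, sls and bt. The ID that the annotation used here gives for wupA, the troponin I gene, is not an ID of the table, and wupA was not analysed here. The rule that names them is protein function and uses no measured level, although the list was chosen with earlier results of these data known. The 3 libraries form 1 group of untreated flies raised at 25°C, and no contrast with a treated or mutant group was analysed here. The series text names CantonS as the wild type, whereas the methods of the study use another strain under that name, and which was sequenced here was not settled. The methods state that adults of both sexes were used across the study, but the sources used here give no sex mix, age or number of flies for each library.

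The sarcomere is the repeating contractile unit of striated muscle, in which myosin thick filaments slide past actin thin filaments. Myosin consists of heavy chains, which hydrolyse ATP and bind actin, and of essential and regulatory light chains on their necks. Tropomyosin and the troponin complex lie along the thin filament and make contraction depend on calcium. Giant elastic proteins tie the thick filaments to the Z disc, where the thin filaments are anchored. A fly head carries muscles that move the proboscis, pump fluid through the pharynx and move the antennae, beside the brain, the eyes and the fat body. In whole-head RNA, fewer muscle cells and less RNA per muscle cell cannot be told apart.

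Library totals ran from 6299265 to 8332583 counts, and 1 count was worth between 0.120 and 0.159 CPM (counts per 1000000 counts of the library). Mean levels of the head markers ran from 0.418 CPM for Fbp1 to 21871 CPM for ninaE. The photoreceptor genes ninaE, Arr2 and trp summed to between 33466 and 36039 CPM, the neuronal genes elav, nSyb, brp and Syt1 to between 3162 and 3736 CPM, and the glial genes repo, Gs2 and Eaat1 to between 2545 and 2715 CPM. The fat body genes Lsp2, apolpp and Fbp1 summed to between 4444 and 5041 CPM, most of it apolpp. Lsp2 was at 150.3, 130.1 and 30.96 CPM in replicates 1, 2 and 3. edgeR, described below, called Lsp2 (adjusted p 0.00959), as it did 0.320% of all genes tested. DESeq2 named Lsp2 as a dispersion outlier (1.18% of all genes). Fbp1 had 1, 6 and 2 counts. The haemocyte genes Hml and NimC1 summed to between 266 and 388 CPM. Nothing in the labels says whether the replicates came from separate cultures, so p-values measure only the spread between these libraries, which may be technical.

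The 9 sarcomere genes together took 1.04% of all counts in replicate 1 (Wilson 95% interval 1.03% to 1.04%), 0.847% in replicate 2 (0.841% to 0.854%) and 0.914% in replicate 3 (0.907% to 0.922%). The mean was 0.933% ± 0.0961 (SD, n = 3). The intervals cover counting error only, and they did not overlap between libraries. Mhc alone held 38.5% ± 0.123 of these counts (SD, n = 3), a share that was almost the same in every library. All 9 genes were well above the depth limit, with at least 1832 counts in each library. By mean CPM, each of them exceeded at least 94.2% of the 10100 genes with 10 or more counts in sum.

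The genes lie on 5 chromosome arms or chromosomes in the dm6 coordinates. Mhc (FBgn0264695) is on 2L at 16766566 to 16788766 on the plus strand, and 21 transcripts are annotated over its 32 separate exon blocks. Mlc1 (FBgn0002772) is on 3R at 27657078 to 27660177 and Mlc2 (FBgn0002773) on 3R at 30171438 to 30174551, both on the minus strand. Prm (FBgn0003149) is on 3L at 8732858 to 8745310 on the minus strand, and up (FBgn0004169) on X at 13593474 to 13602578, also minus. Tm1 (FBgn0003721) lies on 3R at 15278220 to 15308779 on the plus strand. Tm2 (FBgn0004117, 15310193 to 15315197) follows it on the same strand after a gap of 1413 bp. sls (FBgn0086906) is on 3L at 2039681 to 2115611 on the minus strand, and bt (FBgn0005666) on chromosome 4 at 724400 to 776474 on the plus strand.

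The gene models differ widely in length, which bears on every comparison of levels between genes. The union of annotated exons is 1414 bp for Mlc1 and 58996 bp for sls, with bt second longest at 28019 bp. Exons of Tm1 overlap 280 bp of l(3)neo43 and those of sls overlap 1089 bp of asRNA:CR42860, in both cases on the opposite strand. These neighbours had at most 98 counts in any library, against at least 3074 for Tm1 and 5828 for sls. The strand setting of the counting is not given in the sources used here, so how reads in these stretches were assigned is not known.

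By mean CPM, the thick filament genes Mhc (3592) and Mlc2 (1506) were the highest of the set. The thick filament genes Mlc1 and Prm (474 each) lay below sls (925), bt (856), up (661) and Tm1 (513). Mhc, which encodes the heavy chain of muscle myosin in all fly muscles through alternative splicing, had 33385, 23937 and 22129 counts in replicates 1, 2 and 3. These are 4007 CPM (Wilson 95% interval 3964 to 4050), 3257 CPM (3216 to 3299) and 3513 CPM (3467 to 3559). Replicate 1 was highest and replicate 2 lowest, and none of the intervals, which cover counting error only, overlapped.

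Mlc2, the regulatory light chain of muscle myosin, had 1847, 1408 and 1264 CPM in replicates 1, 2 and 3. Mlc1, the essential light chain, had 569.6, 453 and 399 CPM. Both light chains were therefore highest in replicate 1 and lowest in replicate 3, where Mhc was intermediate. Prm encodes paramyosin, a rod protein of the core of invertebrate thick filaments, and a shorter form called miniparamyosin. It had 567.5, 464 and 390.2 CPM, in the same order of libraries as the light chains.

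Among thin filament genes, up, which encodes troponin T, the subunit that binds tropomyosin, had 773, 609.7 and 600.4 CPM. Replicates 2 and 3 were alike within their Wilson intervals, and replicate 1 stood above both. Tm1 and Tm2 encode tropomyosins, and Tm1 also gives rise to isoforms of non-muscle cells, so its counts need not come from muscle alone. Tm1 had 564, 486 and 488 CPM in replicates 1, 2 and 3. Tm2 had 376, 314 and 291 CPM. Replicate 1 was again the highest for each of these 3 genes.

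The titin-like genes showed another order of libraries. sls encodes Sallimus and its shorter form kettin, which span from the Z disc toward the thick filament. It had 846 CPM (Wilson 95% interval 826 to 866) in replicate 1, 793 CPM (773 to 814) in replicate 2 and 1136 CPM (1110 to 1163) in replicate 3. bt encodes projectin, a kinase-bearing protein of the same family of connecting filaments. It had 819, 689 and 1060 CPM. Both were highest in replicate 3 and lowest in replicate 2, and the intervals of the 3 libraries did not overlap for either gene. Wilson intervals cover counting error only, and the share of all genes with intervals apart was not computed. edgeR, described below, called neither sls (adjusted p 0.992) nor bt (0.920).

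**Figure D1:**
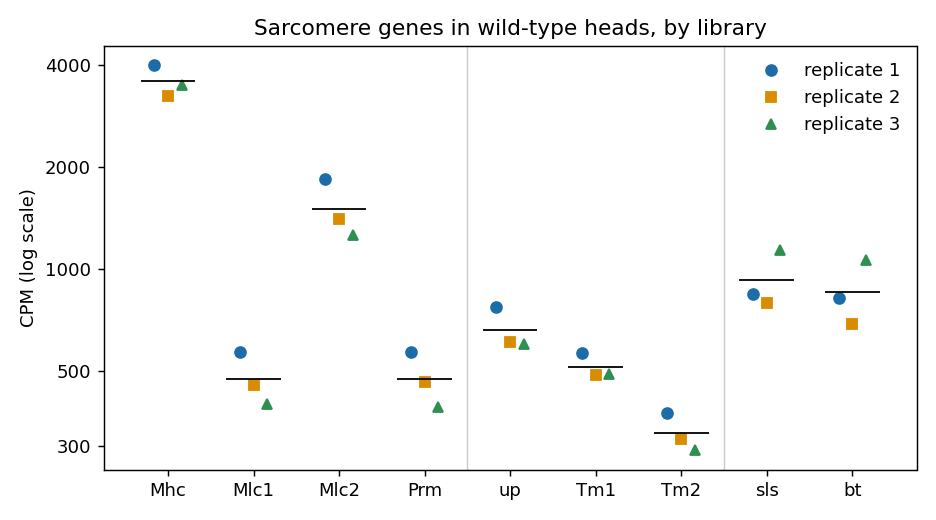
CPM (log scale) of the 9 sarcomere genes in each of the 3 wild-type head libraries, with a bar at the mean and thick filament, thin filament and titin-like genes from left to right. Replicate 1 is the highest point for the 7 thick and thin filament genes, and replicate 3 for sls and bt.

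Per kilobase of annotated exon, a scale that corrects for annotated length only, Mlc2 was highest with 659 CPM per kilobase ± 133 (SD, n = 3). Mhc followed with 397 ± 42.1, Mlc1 with 335 ± 61.6 and up with 261 ± 38.3. Tm2 (125 ± 16.7), Prm (88.5 ± 16.6) and Tm1 (52.3 ± 4.54) came next, and bt (30.6 ± 6.71) and sls (15.7 ± 3.13) were lowest. Neighbours in this order kept it in 3 of 3 libraries. When different libraries were set against each other, Mhc (359.6 to 442 CPM per kilobase) overlapped with Mlc1 (282 to 403). Mlc1 likewise overlapped with up (237 to 305). sls, which exceeded 99.0% of detected genes by CPM, exceeded 58.4% per kilobase. For bt the shares were 98.8% and 77.5%.

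The length that is divided by decided part of this order. Tm1 moved most, since its 18 transcripts run from 752 to 3054 bp whereas their exons together span 9804 bp. Divided by its longest transcript it had 168 CPM per kilobase, and by its median transcript 289. On the median transcript, Tm1 passed Tm2 (227) and Prm (150.2). Mhc and Mlc1 came close to each other on that scale, at 538 and 510.1 CPM per kilobase. On the longest coding sequence Mlc2 (2262) and Mlc1 (1019) both exceeded Mhc (610.3), since both light chains have short coding sequences. bt and sls were lowest on each of the 4 scales. Which isoforms were present was not measured, nor how evenly reads covered the long transcripts of sls and bt.

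**Figure D2:**
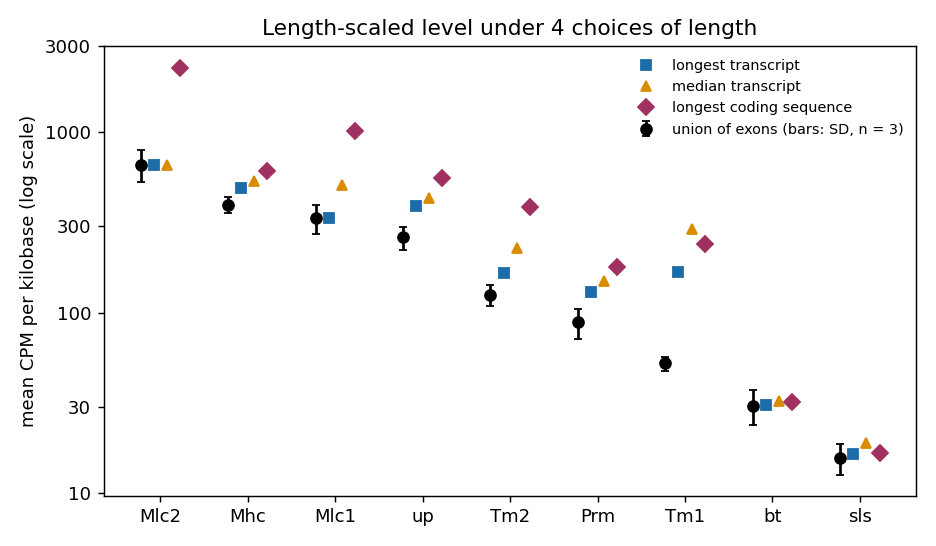
Mean CPM per kilobase (log scale) of each sarcomere gene, divided by the union of annotated exons (circles, bars are SD over 3 libraries), the longest transcript, the median transcript or the longest coding sequence. Tm1 shows the widest gap between the union of exons (52.3) and the transcript lengths (168 and 289), and bt and sls lie lowest on every scale.

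Ratios within a library compare partners of the same filament without the differences in depth between libraries. Differences that follow exon length, given below, need not cancel between genes of unlike length. 8 of 10 chosen pairs could be computed, since wupA and zip (the non-muscle myosin heavy chain) were not matched. Mlc1 was below Mlc2 in each library, with log2 ratios per kilobase of -1.004, -0.94 and -0.97 in replicates 1, 2 and 3. The mean was -0.97 ± 0.03 (SD, n = 3) on the union of exons, a ratio of 0.510. The ratio depended on the length used, with a log2 value of -0.37 on the median transcript and -1.67 without length scaling. The giant genes also kept a steady ratio, with sls against bt at -0.96 ± 0.08.

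Ratios to Mhc varied more. Mlc2 exceeded Mhc by 0.87, 0.78 and 0.51 on the log2 scale in replicates 1, 2 and 3 (mean 0.72 ± 0.19, SD, n = 3). Mlc1 lay below Mhc by a mean of -0.25 ± 0.18. Prm lay below it by -2.18 ± 0.20, with -2.06, -2.05 and -2.41 in the 3 libraries. In each of these ratios replicate 3 was the lowest. Mhc has a longer exon union than Mlc1, Mlc2 and Prm. Outside the muscle lists, genes of 8 to 16 kb (the class of Mhc) had a median log2 deviation of 0.13 in replicate 3. The median was -0.04 at 1 to 2 kb (Mlc1), -0.003 at 2 to 4 kb (Mlc2) and 0.056 at 4 to 8 kb (Prm). Mhc itself deviated by -0.01 in replicate 3, above 3.47% of its class. The part of length in these ratios was not tested. Tm1 was below Tm2 by -1.25 ± 0.08 per kilobase of exon union, but above it by 0.029 on the longest transcript and by 0.36 on the median transcript.

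Muscle light chains exceeded their non-muscle counterparts. Mlc-c, the essential light chain of non-muscle myosin, had 111, 117 and 114 CPM, and sqh, its regulatory light chain, had 106.0, 106 and 101 CPM. Mlc1 was 4.06 times Mlc-c per kilobase (log2 ratio 2.02 ± 0.29, SD, n = 3), and Mlc2 was 9.82 times sqh (3.30 ± 0.26). Both ratios were highest in replicate 1, where the muscle genes were high. The TMM-scaled values of Mlc-c and sqh spanned a log2 range of only 0.04 and 0.07 over the libraries, against 0.52 for Mlc1 and 0.55 for Mlc2. For each of the 8 ratios the sign was the same in 3 of 3 libraries, and an exact permutation of signs (two-sided) gave p = 0.25, below which 3 libraries cannot go. Adjusted over the 8 pairs by the Benjamini-Hochberg method, the exact p stayed at 0.25.

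**Figure D3:**
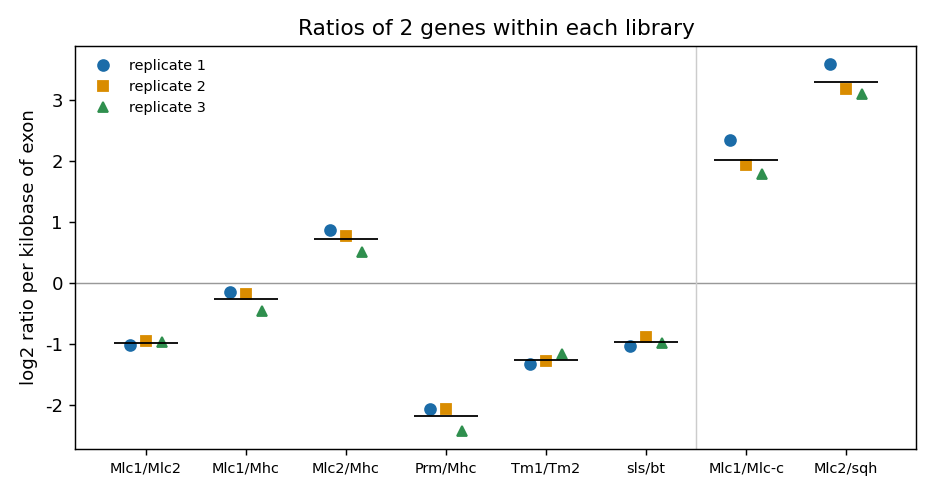
Log2 ratio per kilobase of exon for 8 pairs of genes in each library, with a bar at the mean and pairs with a non-muscle gene to the right of the vertical line. Mlc1/Mlc2 and sls/bt lie close together in the 3 libraries, whereas Prm/Mhc and Mlc2/Mhc are lowest in replicate 3.

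Differences between replicates were described on TMM-scaled CPM, a scaling that centres each library on the bulk of its genes. 7 of the 9 genes were highest in replicate 1, against 30.6% of the 9049 genes tested, 2 were highest in replicate 3, against 33.7%, and 0 in replicate 2, against 35.7%. 5 of the 9 were lowest in replicate 2, against 36.1% of all genes tested, and 4 in replicate 3, against 34.8%. None was lowest in replicate 1, against 29.1%. The 7 were all the thick and thin filament genes matched, and the 2 were sls and bt. The median log2 range over libraries was 0.52 for the 9 genes and 0.23 for all genes tested. It ran from 0.27 for Tm1 to 0.67 for bt, which is 1.21-fold to 1.59-fold. With replicates 1 and 2 alone, all 9 genes were higher in replicate 1. With replicates 2 and 3 alone, 5 were higher in replicate 3 and 4 in replicate 2. The matching shares of all genes tested were not computed for these pairs of libraries, so these counts have no baseline. The 7 genes shared their highest library but not their lowest, which was replicate 2 for Mhc, up and Tm1 and replicate 3 for Mlc1, Mlc2, Prm and Tm2.

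None of these differences passed the test across the whole table. edgeR's quasi-likelihood fit set each gene's spread over the libraries against the spread typical for its abundance, and it called 0.320% of the genes tested at an adjusted p under 0.05. It called 0 of the 9 sarcomere genes, whose adjusted p-values lay between 0.920 and 0.992 (Benjamini-Hochberg). DESeq2, which named 1.18% of genes as dispersion outliers, also named 0 of the 9. At an unadjusted p under 0.05, edgeR gave 4.64% of all genes and 4 of the 9, namely bt (p 0.0252, edgeR), Prm (0.0353), Mlc1 (0.0383) and sls (0.0444).

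The call depended on the libraries used. Without replicate 2, edgeR called 3 of the 9 genes, against 0.627% of all genes. They were Prm (adjusted p 0.0134, edgeR), Mlc1 (0.0274) and Mlc2 (0.0321), each higher in replicate 1 than in replicate 3. At an unadjusted p under 0.05 it then gave 7 of the 9, against 6.07% of all genes. Without replicate 1 it called 0 of the 9 (0.607% of all genes) and gave 2 at an unadjusted p under 0.05 (5.43%). Without replicate 3 it called 0 (0.479%) and gave 0 unadjusted (5.41%).

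These length classes were chosen after the data were seen. Exon length moved with the library across the whole table. Outside the muscle lists, the median log2 deviation of replicate 3 from the gene mean was -0.06 for 1227 genes with up to 1 kb of exon and 0.19 for 36 genes with more than 16 kb. The median of replicate 2 was 0.05 and -0.14 in these classes, and that of replicate 1 was 0.01 and -0.03. Of the 36 longest genes, 91.7% were highest in replicate 3.

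Against the genes of their own length class outside the muscle lists, sls and bt still lay toward the edge. Their deviations in replicate 3 were 0.33 and 0.35, each above 97.2% of the 36 genes over 16 kb outside the muscle lists. Within those lists Msp300, RyR and Strn-Mlck also exceed 16 kb, and their deviations in replicate 3 were 0.37, 0.26 and 0.16. The class has no upper limit, so a trend with length inside it is not removed. With the median of the class subtracted, the log2 range of sls was 0.24 in place of 0.57 and that of bt 0.34 in place of 0.67, and both stayed highest in replicate 3. Of the markers, 3 of the 4 neuronal genes and 2 of the 2 haemocyte genes were highest in replicate 3, against 33.7% of all genes tested. So were 1 of 3 photoreceptor, 1 of 3 glial and 0 of 2 tested fat body genes. The neuronal and haemocyte genes highest there were mostly long. Outside the muscle lists, 87.1% of genes of 8 to 16 kb (the class of elav, brp and Hml) were highest in replicate 3. The share was 56.1% at 4 to 8 kb (Syt1) and 30.7% at 2 to 4 kb (NimC1). Lowest in replicate 2 were 4 of 4 neuronal, 2 of 3 glial and 1 of 3 photoreceptor genes, against 36.1% of all genes tested. So were 0 of 2 haemocyte and 0 of 2 tested fat body genes. The part that length or these markers had in the values of sls and bt was not tested.

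In replicate 1, the class medians differed little with length. There the deviations of the 7 thick and thin filament genes ran from 0.16 for Tm1 to 0.33 for Mlc2. Each was above at least 96.2% of the genes of its length class outside the muscle lists. The medians of these classes lay between -0.02 and 0.01. With class medians subtracted, these 7 remained highest in replicate 1, Tm1 and Mhc (9804 and 9058 bp of exon) among them.

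**Figure D4:**
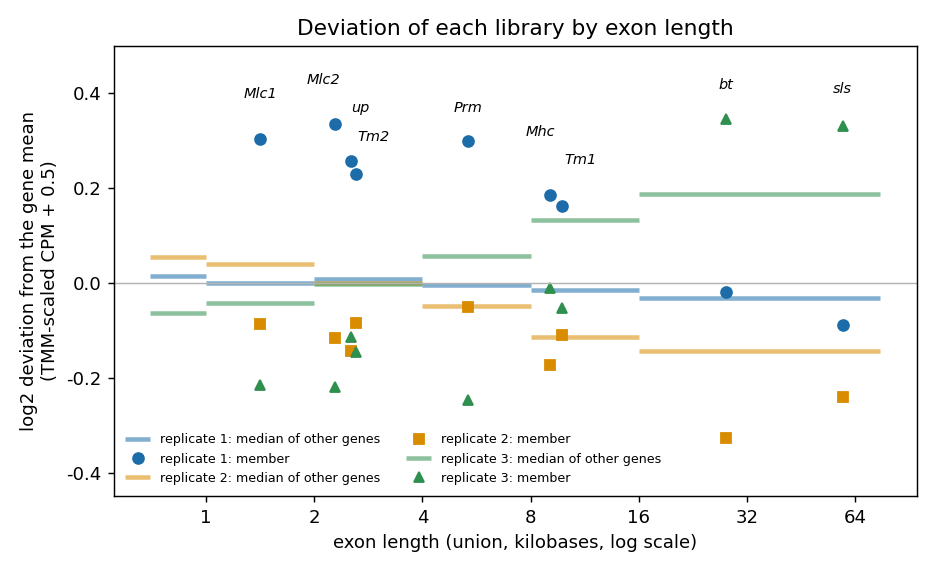
Log2 deviation of each library from the gene mean (TMM-scaled CPM + 0.5) against the union exon length in kilobases (log scale), with points for the 9 sarcomere genes and horizontal lines for the median of genes outside the muscle lists in each length class. The 7 genes up to 9.8 kb have replicate 1 on top, while sls and bt have replicate 3 on top and replicate 2 at the bottom, in the order of the class medians.

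Other genes of the sarcomere were read from the same fit. Of a list of 24 Z disc, actin, troponin C and associated genes, 22 were tested, and their median log2 range was 0.32, against 0.23 over all genes tested. Replicate 1 held the highest value for 12 of them (30.6% of all genes), replicate 3 for 6 (33.7%) and replicate 2 for 4 (35.7%). The lowest value was in replicate 2 for 14 of the 22 (36.1%), in replicate 3 for 5 (34.8%) and in replicate 1 for 3 (29.1%). edgeR called 1 of them, Act88F (0.320% of all genes), and 4 had an unadjusted p under 0.05 (4.64%). DESeq2 named 4 as outliers (1.18%). Per kilobase the highest were Act57B, a muscle actin (699.5 CPM per kilobase ± 134), TpnC25D, a troponin C (415 ± 61.1), and Mf, which encodes the thick filament protein myofilin (147 ± 14.9; SD, n = 3). TpnC25D had 606, 473 and 475 CPM in replicates 1, 2 and 3, and was highest in replicate 1, as was up, its partner in the troponin complex. Act57B had 1390.2, 1281 and 946 CPM and was lowest in replicate 3, as Prm and the light chains were. tmod, which encodes tropomodulin, a cap of thin filament pointed ends, went another way with 346, 663 and 351 CPM, highest in replicate 2 (edgeR p 0.00154, adjusted p 0.205), and DESeq2 named it as an outlier. TpnC41C, another troponin C, had 26.4, 11.2 and 24.8 CPM, lowest in replicate 2 (adjusted p 0.187, edgeR), and was also named by DESeq2. Msp300, a giant nesprin with 69810 bp of exon, had 1019, 984 and 1454 CPM, in the order of sls; like Act88F, it was among the DESeq2 outliers. Msp300, RyR, Strn-Mlck, tmod and TpnC41C were named after their values were seen.

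Of 7 muscle calcium and energy genes, all were tested, 0 were called by edgeR (0.320% of all genes) and 0 had an unadjusted p under 0.05 (4.64%). DESeq2 named 0 of them as outliers (1.18%). 5 were highest in replicate 1 (30.6%) and 2 in replicate 3 (33.7%), and the median log2 range was 0.27, against 0.23 over all genes tested. Replicate 2 held the lowest value for 6 of the 7 (36.1% of all genes) and replicate 3 for 1 (34.8%). Per kilobase the highest were Argk1, arginine kinase (646 ± 36.6), Ald1, an aldolase (442 ± 10.2), and SERCA, the calcium pump of the sarcoplasmic reticulum (376 ± 46.1; SD, n = 3). These genes are also used outside muscle. Mef2, a transcription factor of muscle differentiation that neurons express too, had 145, 130 and 137 CPM, a log2 range of 0.22.

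Markers of thoracic flight muscle had few counts. fln, which encodes flightin of the flight muscle thick filament, had 2, 2 and 6 counts, and TpnC4, a troponin C of flight muscle, had 16, 14 and 10. Act88F, the flight muscle actin, had 26, 23 and 116 counts, or 3.12, 3.13 and 18.4 CPM, and edgeR called it (adjusted p 0.0375). Without replicate 3 the call was lost (adjusted p 0.998, edgeR). Its counts were 0.224%, 0.244% and 1.95% of those of Act57B. Actin genes are near-identical copies, so counts of a single member are uncertain. Per kilobase of exon, Act88F was at 1.96, 1.96 and 11.5 CPM in replicates 1, 2 and 3, and sls at 14.3, 13.4 and 19.3 CPM. Both were highest in replicate 3, and the part of flight muscle RNA in the values of sls and bt was not tested.

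The profile of the 9 genes averaged over members was 0.18, -0.15 and -0.04 on the log2 scale in replicates 1, 2 and 3. Among the 9040 other genes tested, the 5 nearest to it by Euclidean distance were CG12868, CG4424, CG9662, Syt14 and CG7402, at distances of 0.0104 to 0.0150. With 3 libraries a centred profile has few degrees of freedom, and this is a description only. None of the 5 exceeded a mean of 34.0 CPM, far below the sarcomere genes.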

How the data were processed

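Poly(A) RNA libraries were made from 150 ng of total head RNA per replicate with the TruSeq Stranded mRNA kit. The authors deposited raw read counts per FlyBase gene ID in 1 table with 1 column per library. Per the labels, STAR 2.7.4a, featureCounts and dm6 were used, and the methods name snakePipes with an Ensembl annotation. Strand and multi-mapping settings are not given in the sources used here. The table held 0 columns of other samples and 0 rows without a gene ID.

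Symbols, exons and transcripts came from Ensembl release 115 (BDGP6, dm6 coordinates), a later release than that of the study, and 17252 of 17558 IDs matched. Unc-89 was read as Obsc, its current symbol. CPM used the total of all genes. Intervals were Wilson 95% intervals. Ratios had 0.5 count added. Exon length was the union of all exons. Variability was fitted with edgeR 4.0.16 (R 4.3.3) with TMM, filterByExpr and an intercept-only design, with each quasi-dispersion compared with its prior by an F distribution, and DESeq2 1.42.0 as an alternative. Deviations used log2(TMM-scaled CPM + 0.5).

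Named genes were the sarcomere genes, non-muscle paralogues, Mef2, flight muscle markers, the 3 highest per kilobase and those called in each further list, and the 5 nearest profiles. Members and lists were chosen with earlier results of these data known. The correction by length class was added after seeing the data, and its classes were settled after deciles and other class limits had been looked at. Protein and promoter features were not analysed here.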

Additional observations from a re-analysis of the deposited data

How the results depend on the processing

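No pairing of samples between groups was possible because the design has a single group. Only the ratios of 2 genes were paired, within each library. The cause was not tested for any change given here, except where an alternative itself removes libraries or genes. Without length scaling the log2 ratio changed sign for Mlc2/Mhc (-1.27), Tm1/Tm2 (0.65) and sls/bt (0.12) since the counts of longer genes are then not divided. It kept its sign but moved by over 1.5 times for Mlc1/Mlc2 (-1.67), Mlc1/Mhc (-2.93) and Prm/Mhc (-2.93), as did Mlc1/Mlc2 on the median transcript (-0.37) and Mlc2/Mhc on the longest coding sequence (1.88). Tm1/Tm2 also changed sign on the longest (0.029) and the median transcript (0.36), and Mlc1/Mhc on the longest coding sequence (0.73). The summed share was 1.05% without the 10 most abundant genes in the denominator. Over all genes, edgeR called 29, 118 without the filter and 44 to 57 with 1 library left out, and DESeq2 named 107. With 1 library left out, edgeR called 0 to 3 sarcomere genes, and 0 to 7 had an unadjusted p under 0.05 by edgeR. Replicate 1 was then highest for 7 to 9 genes, replicate 2 for 0 to 4 and replicate 3 for 2 to 5, with no share of all genes computed. Scaling by total counts, DESeq2 size factors, totals without mitochondrial genes or the median of all genes left 7 genes highest in replicate 1 and 2 in replicate 3.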
